A study of Mus musculus with 11 samples.

Results

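The genes described here are 33 genes of glucose breakdown and of the response to low oxygen, chosen by name, among 16576 genes listed in any of 3 deposited tables of mouse bone marrow stromal cells. Of these, 24 were glycolysis members and 9 were hypoxia members. All 33 were listed in the adult table and in the Sca1 table, and 32 in the knockout table, where Hk3 has no row. A filter on low counts removed no member from the adult table, Hk3 from the Sca1 table and no listed member from the knockout table.

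PolyA RNA was sequenced from stromal cells sorted by flow cytometry, in 11 samples of 4 groups, to follow stromal cells with age, by the surface marker Sca1 and after deletion of Igf1r, which encodes a receptor of insulin-like growth factors. The adult group held 3 wild-type samples sorted as PDGFRa+CD51+. The labelled Sca1-positive group held 3 wild-type, Cre-negative samples of perinatal cells sorted as PDGFRa+Sca1+, and the labelled Sca1-negative group held 2 wild-type perinatal samples (replicates 2 and 3) sorted as PDGFRa+Sca1-. The knockout group held 3 Cre-positive samples sorted as PDGFRa+Sca1+ with Igf1r deleted, for which the sample label gives no age. Perinatal is the word of the study's design, and the sample labels of the wild-type cells say postnatal. The labels name neither the Cre driver nor exact ages, Cre and the deletion ran together, and no source says that replicates are different animals. The p-values therefore measure only the spread between these libraries, which may be technical.

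Glycolysis splits glucose into pyruvate in the cytosol, and cells with little oxygen turn that pyruvate into lactate and export it. Hypoxia-inducible factors (HIF) are paired transcription factors that prolyl hydroxylases mark for destruction while oxygen is present. When oxygen falls they bind short DNA sites with the core ACGTG or GCGTG and raise glucose transporters, most glycolytic enzymes and genes of vessel growth. Bone marrow is a tissue with low oxygen, and its stromal cells, like activated macrophages, are known to rely on glycolysis.

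The windows of 250 bases before the start of 5 members are shown because they carry, or lack, the ACGTG form of the HIF core and because these members changed in opposite directions in the adult comparison. They run 5′ to 3′ on the gene's strand, come from RefSeq (GRCm38.p6), and capitals mark ACGTG on either strand. Pgk1 encodes phosphoglycerate kinase, Slc2a1 the glucose transporter GLUT1, Egln3 a prolyl hydroxylase that acts on HIF, P4ha2 a subunit of collagen prolyl 4-hydroxylase and Ldhb the lactate dehydrogenase subunit typical of heart.
Pgk1: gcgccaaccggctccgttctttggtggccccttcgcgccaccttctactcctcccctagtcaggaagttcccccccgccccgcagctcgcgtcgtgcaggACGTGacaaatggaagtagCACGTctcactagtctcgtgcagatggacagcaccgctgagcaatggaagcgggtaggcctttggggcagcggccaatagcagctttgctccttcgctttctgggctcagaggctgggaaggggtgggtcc
Slc2a1: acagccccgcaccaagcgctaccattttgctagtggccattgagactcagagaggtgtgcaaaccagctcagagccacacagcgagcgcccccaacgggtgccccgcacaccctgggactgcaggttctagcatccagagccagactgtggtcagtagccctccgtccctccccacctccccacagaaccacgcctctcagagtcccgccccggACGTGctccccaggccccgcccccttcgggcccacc
Egln3: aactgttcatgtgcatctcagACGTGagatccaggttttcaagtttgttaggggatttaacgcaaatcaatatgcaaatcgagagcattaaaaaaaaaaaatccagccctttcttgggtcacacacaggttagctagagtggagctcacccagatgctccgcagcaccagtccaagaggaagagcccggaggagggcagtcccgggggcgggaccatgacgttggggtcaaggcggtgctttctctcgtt
P4ha2: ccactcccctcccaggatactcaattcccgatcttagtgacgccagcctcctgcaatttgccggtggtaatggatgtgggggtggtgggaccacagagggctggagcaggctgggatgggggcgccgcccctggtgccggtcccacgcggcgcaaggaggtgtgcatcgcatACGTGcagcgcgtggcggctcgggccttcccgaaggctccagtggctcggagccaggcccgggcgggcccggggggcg
Ldhb: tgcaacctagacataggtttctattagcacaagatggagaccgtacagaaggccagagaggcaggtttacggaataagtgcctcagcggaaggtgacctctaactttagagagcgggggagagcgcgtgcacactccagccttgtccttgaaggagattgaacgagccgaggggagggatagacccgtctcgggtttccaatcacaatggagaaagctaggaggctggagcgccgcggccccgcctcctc
The Pgk1 window lies at chrX:106186850-106187099 on the plus strand, with ACGTG starting at -150 and -131 from the start of the transcript. The Slc2a1 window (chr4:119108495-119108744, plus strand) has 1 at -36, the Egln3 window (chr12:54203875-54204124, minus strand) 1 at -229 and the P4ha2 window (chr11:54100674-54100923, plus strand) 1 at -78. The Ldhb window (chr6:142507958-142508207, minus strand) has none. GCGTG on either strand, which the Ldhb window holds 1 time, the Slc2a1 window 1 time and the P4ha2 window 2 times, is left in lower case.

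Of 32 members with a window in that table, 16 held ACGTG (50%), searched on both strands, so that CACGTG counts on each, against 16.6% of 27025 windows of all genes and 21.5% of 10699 windows of genes tested in the adult comparison. The sequence GCGTG, searched in the same way, was in 17 of 32 members (53.1%), against 28.2% and 44.7%. ACGTG was in 10 of 24 glycolysis and 6 of 8 hypoxia members. Among members with a window, 11 of the 23 that were higher in adult cells held ACGTG, 3 of the 5 that were lower and 2 of the 4 that passed in neither direction. These are matches of letters in a short window, and several members have further start sites.

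The libraries limit what these groups can be called. Ly6a, the gene of Sca1, ran against the labels, with 10159 and 9112 counts in the labelled Sca1-negative libraries, while the labelled Sca1-positive libraries 2 and 3 held 239 and 145. Control 1 of the knockout table held 8624 and the knockouts 17051, 12936 and 22125. Ly6a has no row of that name in the adult table. The labelled Sca1-positive libraries 2 and 3 also carried the cartilage markers, with a summed level of 6137 and 7476 CPM (counts scaled to library size with TMM factors) in the knockout table, against 988 in control 1 and 483 to 766 in the knockouts. They served as controls in all 3 tables, so the 3 comparisons are not independent, while replicate 1 is a different library in the adult and knockout tables. Igf1r, the deleted gene, held 599, 548 and 444 counts in the controls and 182, 80 and 77 in the knockouts (log2 difference -2.55, edgeR adjusted p = 0.0816). In the adult libraries Pdgfra, the gene of the sorted receptor, was at 11.9 to 14.0 CPM against 256 to 309 CPM in the perinatal ones, Itgav, the gene of CD51, was at 240 to 283 CPM against 51.8 to 56.8 CPM, and all 15 macrophage markers were higher, with a summed level of 26858 to 28351 CPM against 32.2 to 43.2 CPM. None of the 15 was at 0 in all libraries of either group. Total counts per library ran from 13412316 to 23782217, and 3 counts, taken as the limit of detection, were worth 0.126 to 0.224 CPM.

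The first comparison set the adult libraries against the perinatal ones labelled Sca1-positive, where age and sort gate differed together. The glycolysis members were mostly higher in the adult libraries and the hypoxia members were mixed. Of 24 glycolysis members 18 rose and 3 fell, with a median log2 difference of 1.31 beside -0.06 over all genes tested. Over all 13757 genes tested, 37.4% were higher and 39.7% lower at an edgeR adjusted p under 0.05. Of all counts, the glycolysis members took 1.35%, 1.25% and 1.25% per adult library and 0.508%, 0.588% and 0.601% per perinatal library. Of 9 hypoxia members 5 rose and 3 fell (median log2 difference 0.57), so 8 of 9 were called beside 77.1% of all genes. The libraries of both groups did not overlap for 23 of 24 glycolysis and 8 of 9 hypoxia members, beside 81.2% of all genes. Macrophage markers moved with every difference in this table. The immediate early genes, which also respond to tissue dissociation, moved with it too, as all 8 were lower in adult libraries, with a summed level of 437 to 519 CPM against 11090 to 15041 CPM. The part of either list in the members' values was not tested. In bulk samples fewer cells of a type and less RNA per cell cannot be told apart.

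**Figure D1:**
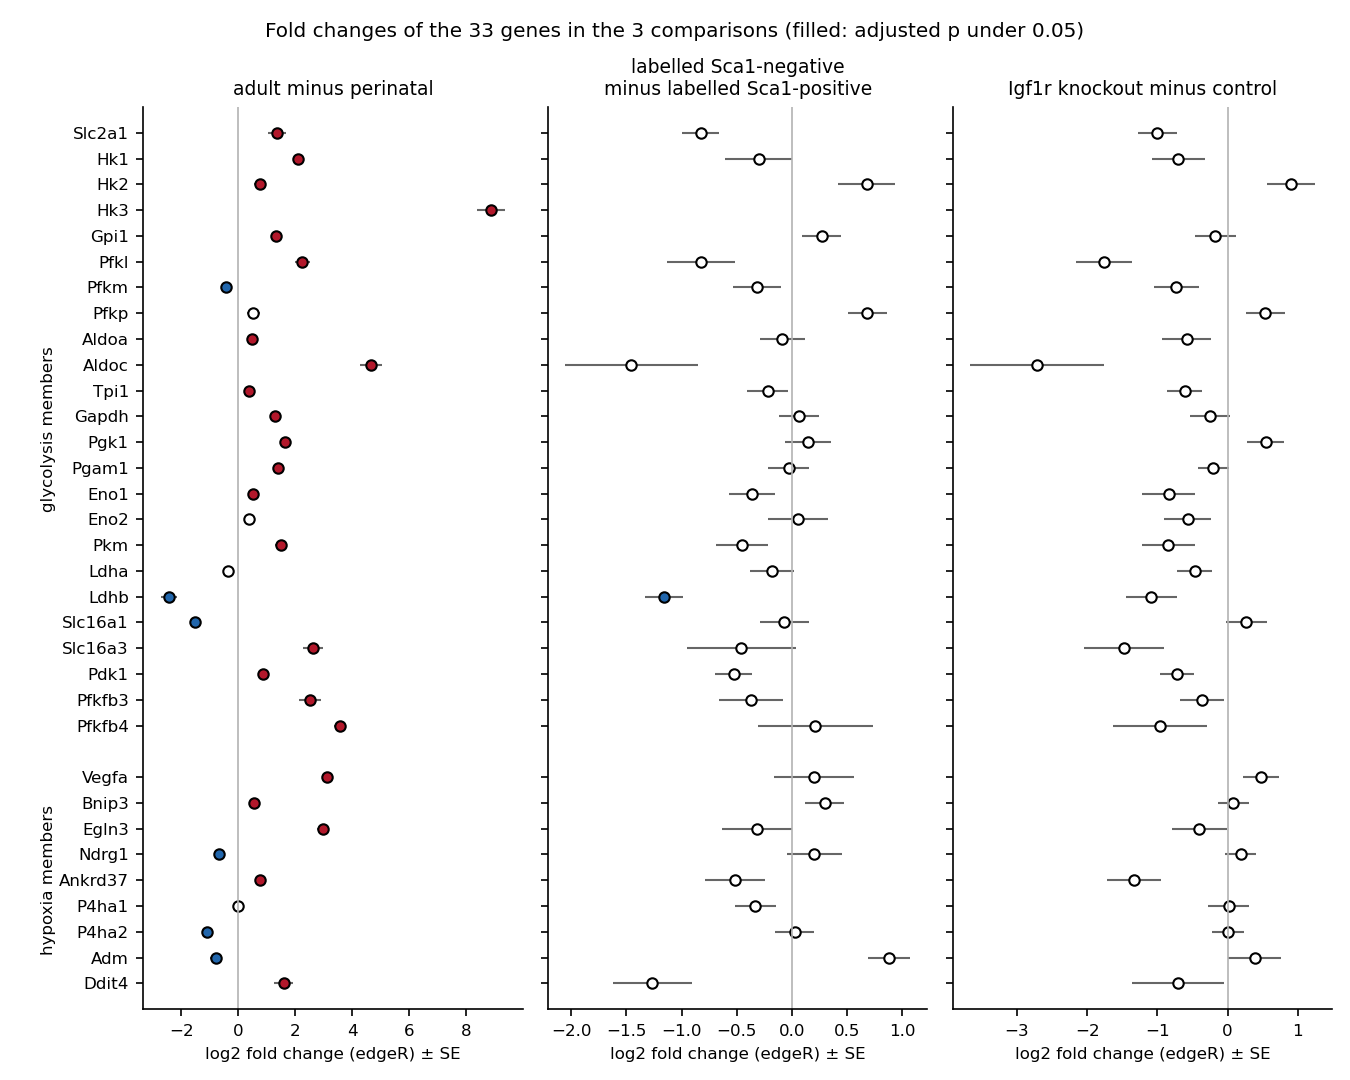
Log2 fold changes (x axis, edgeR, with standard errors as bars) of the 33 genes (y axis) in the 3 comparisons, filled in red for higher and blue for lower at an adjusted p under 0.05 and open otherwise; the x axes differ in range. In the adult panel most glycolysis members lie to the right of 0, with Hk3 at 8.87, while Ldhb is the filled point of the Sca1 panel and no point is filled in the knockout panel.

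Glucose entry and the upper steps held 11 members, of which 9 rose and Pfkm fell. Hk3 encodes hexokinase 3, a form known mainly from myeloid cells, and lies on chromosome 13 (55005985 to 55021385, minus strand, mm10). It was at 158, 108 and 140 CPM in adult replicates 1, 2 and 3 and at 0, 0.565 and 0.231 CPM in the perinatal ones (log2 fold change 8.87, SE 0.50, edgeR adjusted p = 4.14e-06). The perinatal values are at or near the limit of detection, so the size of that fold is uncertain. Hk1 encodes the hexokinase of most tissues. It was at 205, 134 and 183 CPM in adult and 35.0, 40.4 and 45.0 CPM in perinatal libraries (log2 fold change 2.12, SE 0.19, edgeR adjusted p = 3.75e-05). Hk2, the hexokinase that HIF and insulin are known to raise, was at 168, 99.1 and 138 CPM against 92.1, 74.8 and 71.7 CPM (0.76, SE 0.21, edgeR adjusted p = 0.0112). All adult libraries lay above all perinatal ones for each of the 3 hexokinases, and for Hk2 adult replicate 2 lay just above perinatal replicate 1. Slc2a1, the transporter that lets glucose in, was at 215, 125 and 160 CPM against 39.5, 75.8 and 78.7 CPM and rose by 1.36 on the log2 scale (SE 0.30). Erythroid markers went the other way, with 4 of 5 tested lower and a summed level of 0.484 to 1.01 CPM in adult against 463 to 1054 CPM in perinatal libraries. Their part in the level of Slc2a1 was not tested.

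Phosphofructokinase, the committed step of glycolysis, is built from liver (Pfkl), muscle (Pfkm) and platelet (Pfkp) type subunits. Pfkl was at 256, 191 and 254 CPM in adult and 32.1, 60.1 and 54.7 CPM in perinatal libraries (log2 fold change 2.26, SE 0.26, edgeR adjusted p = 1.21e-04). Pfkm was at 28.5, 28.5 and 29.9 CPM against 32.4, 42.7 and 42.9 CPM and fell by 0.44 on the log2 scale (SE 0.15, edgeR adjusted p = 0.0242). Pfkp was at 99.4, 85.2 and 88.9 CPM against 88.2, 47.0 and 54.1 CPM, and these groups overlapped (0.53, SE 0.24, edgeR adjusted p = 0.0714). Pfkm lost its call without any 1 of the libraries except perinatal replicate 1 (log2 fold changes -0.41 to -0.37, edgeR adjusted p 0.0705 to 0.0998) and with library totals (-0.17). Pfkp was called without perinatal replicate 1 (0.87, edgeR adjusted p = 2.35e-04), the perinatal library in which it was highest. With all libraries it was also called with library totals (0.80, edgeR adjusted p = 0.0133) and without the filter (0.59, 0.0470).

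Aldolase and the steps next to it rose too. Aldoa encodes the common aldolase and was at 1208, 1052 and 1141 CPM in adult and 708, 820 and 906 CPM in perinatal libraries (log2 fold change 0.48, SE 0.15, edgeR adjusted p = 0.0188). Aldoc, the brain form, was at 62.7, 48.4 and 54.7 CPM against 1.03, 3.64 and 1.70 CPM (4.67, SE 0.39, edgeR adjusted p = 2.49e-05). Adult libraries lay above perinatal ones for both, with a far larger fold for the rarer form. Gpi1, glucose-6-phosphate isomerase, rose by 1.34 and Tpi1, triosephosphate isomerase, by 0.39 on the log2 scale. With upper quartile scaling Aldoa (0.35, edgeR adjusted p = 0.0564), Tpi1 (0.26, 0.0929) and the enolase gene Eno1 (0.38, 0.0513) did not pass. The median of all genes moved by -0.13 on the log2 scale with upper quartile factors and by 0.27 with library totals, so small differences in this table depend on the scaling.

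**Figure D2:**
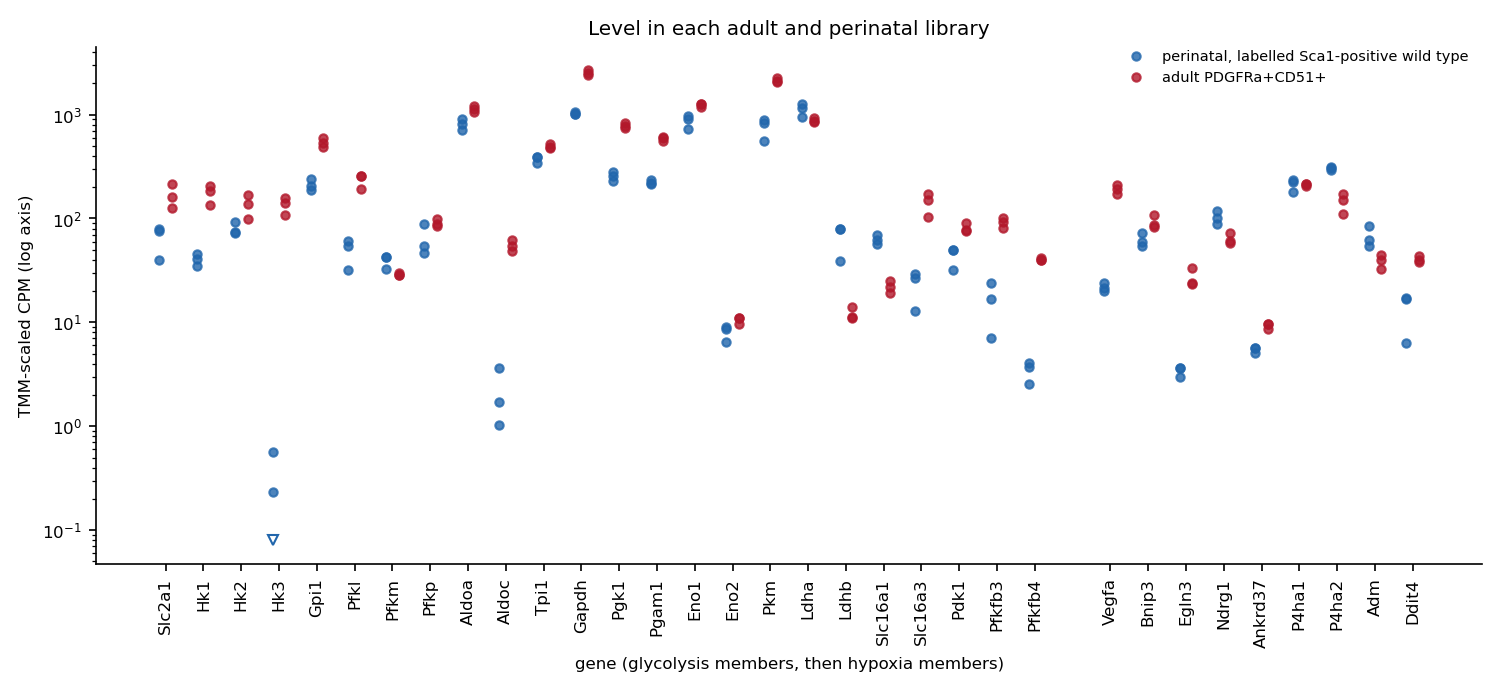
Level of each gene (x axis) in each library of the adult table (y axis, TMM-scaled CPM on a log axis), with blue points for the 3 perinatal libraries labelled Sca1-positive and red points for the 3 adult libraries; the open triangle is a library at 0 counts of Hk3. The groups are furthest apart for Hk3, Aldoc, Pfkfb4, Vegfa and Egln3, and all adult points lie below the perinatal ones for Pfkm, Ldha, Ldhb, Slc16a1, Ndrg1, P4ha2 and Adm.

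The lower steps, from glyceraldehyde 3-phosphate to pyruvate, held 6 members, of which 5 rose and none fell. Pgk1 made the smallest adjusted p among them, at 823, 784 and 751 CPM in adult and 280, 255 and 227 CPM in perinatal libraries (log2 fold change 1.63, SE 0.14, edgeR adjusted p = 2.57e-05). No adult library of Pgk1 came near a perinatal one. Gapdh, often used as a reference gene, rose by 1.29, Pgam1, phosphoglycerate mutase, by 1.40 and Pkm, pyruvate kinase, by 1.49 on the log2 scale. Enolase comes in a common form, Eno1, and a neuronal form, Eno2. Eno1 was at 1259, 1190 and 1251 CPM against 727, 916 and 964 CPM (0.51, SE 0.15, edgeR adjusted p = 0.0174). Eno2 was at 11.1, 9.71 and 11.0 CPM against 9.09, 6.47 and 8.71 CPM, without overlap, and did not pass (0.39, SE 0.19, edgeR adjusted p = 0.102). It passed without perinatal replicate 1 (0.50, edgeR adjusted p = 0.0373) and with library totals (0.66, 0.0145).

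Some of these genes have near-identical pseudogene copies, and the rule for counting reads that match both is not known from the labels. Pgam1 has 1 annotated copy, Pgam1-ps2, that took 21.1% to 23.6% of the counts of the pair in adult libraries and 0% to 7.11% in perinatal ones. Gapdh has 88 annotated copies at 95% identity or more, 20 of which were listed, and they took 9.47% to 11.4% of their joint counts in adult and 1.55% to 2.74% in perinatal libraries. The share of copies differed between the groups for both genes, so the fold changes of Gapdh and Pgam1 are uncertain. For the other members with copies, the listed copies took at most 0.295% of the counts. Among the genes listed with the adult libraries were 1 of 4 copies of Pgk1 and 1 of 3 of Eno1. No copy of Tpi1, Ldhb, Pkm, Gpi1, Ldha or Bnip3 was listed. Any reads given to unlisted copies are not seen here.

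Lactate and pyruvate handling held 5 members, of which 2 rose and 2 fell. Lactate dehydrogenase is made of Ldha, the muscle subunit that favours lactate production, and Ldhb. Ldha was at 919, 865 and 852 CPM in adult and 956, 1151 and 1263 CPM in perinatal libraries, without overlap, and did not pass (log2 fold change -0.35, SE 0.15, edgeR adjusted p = 0.0629). It was called lower with upper quartile factors (-0.48, edgeR adjusted p = 0.0187), with DESeq2 (-0.31, adjusted p = 0.0469) and without perinatal replicate 1 (-0.44, edgeR adjusted p = 0.00397). Ldhb was at 11.1, 14.1 and 11.3 CPM against 39.2, 78.7 and 78.8 CPM and fell by 2.43 on the log2 scale (SE 0.29, edgeR adjusted p = 1.50e-04). Perinatal replicate 1 held an intermediate level of Ldhb and also stood apart in its cartilage markers, at 881 CPM against 7051 and 8564 CPM in replicates 2 and 3. Its osteoblast markers (364 CPM against 6679 and 6370 CPM) and fibroblast progenitor markers (1407 CPM against 484 and 635 CPM) differed as well. The part of those markers in the level of Ldhb was not tested.

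The lactate carriers among the members went in opposite directions. Slc16a3, which encodes the HIF-induced exporter MCT4, was at 172, 104 and 150 CPM in adult and 12.8, 27.0 and 29.2 CPM in perinatal libraries (log2 fold change 2.62, SE 0.34). Slc16a1, which encodes MCT1, was at 25.3, 21.8 and 19.1 CPM against 57.4, 61.5 and 69.5 CPM and fell by 1.51 on the log2 scale (SE 0.15). Pdk1 encodes a kinase that keeps pyruvate out of mitochondria and rose by 0.88 (SE 0.20, edgeR adjusted p = 0.00408).

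Pfkfb3 and Pfkfb4 encode enzymes of a family that sets the level of the main activator of phosphofructokinase, and both rose. Pfkfb4 was at 40.2, 39.5 and 41.6 CPM in adult and 3.70, 2.57 and 4.09 CPM in perinatal libraries (log2 fold change 3.55, SE 0.20, edgeR adjusted p = 3.82e-06), the smallest adjusted p of the glycolysis members. Pfkfb3 was at 100.3, 81.1 and 92.5 CPM against 7.10, 16.6 and 23.9 CPM (2.52, SE 0.39). The spread was narrow for Pfkfb4 in both groups and wide for Pfkfb3 in the perinatal one.

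Shares within a family were taken on a scale per length, from the authors' TPM values (length-scaled transcript levels), because counts of different genes are not comparable. In the perinatal libraries Hk2 held 86.5%, 79.3% and 77.2% of the hexokinase level and Hk3 0%, 0.384% and 0.157%. In the adult libraries Hk2 held 23.9%, 21.3% and 21.8%, Hk1 39.4%, 39.5% and 40.2% and Hk3 36.7%, 39.2% and 38.0%. Perinatal cells thus had mostly Hk2 and adult libraries all 3 forms. Pfkl held 56.0%, 50.7% and 57.8% of the phosphofructokinase level in adult and 19.6%, 35.8% and 32.4% in perinatal libraries. Pfkm held 8.19%, 9.43% and 8.93% against 25.4%, 33.3% and 33.1%, and the share of Pfkp overlapped (36.3% ± 3.33 against 40.1% ± 13.0, SD, n = 3 each). Aldoc held 2.93% ± 0.201 of the aldolase level against 0.202% ± 0.133, and Ldhb 1.69% ± 0.266 of the lactate dehydrogenase level against 6.78% ± 1.61 (SD, n = 3 each). Eno2 stayed near 1% of enolase in both groups, at 0.926% ± 0.147 and 0.732% ± 0.239, with overlap.

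**Figure D3:**
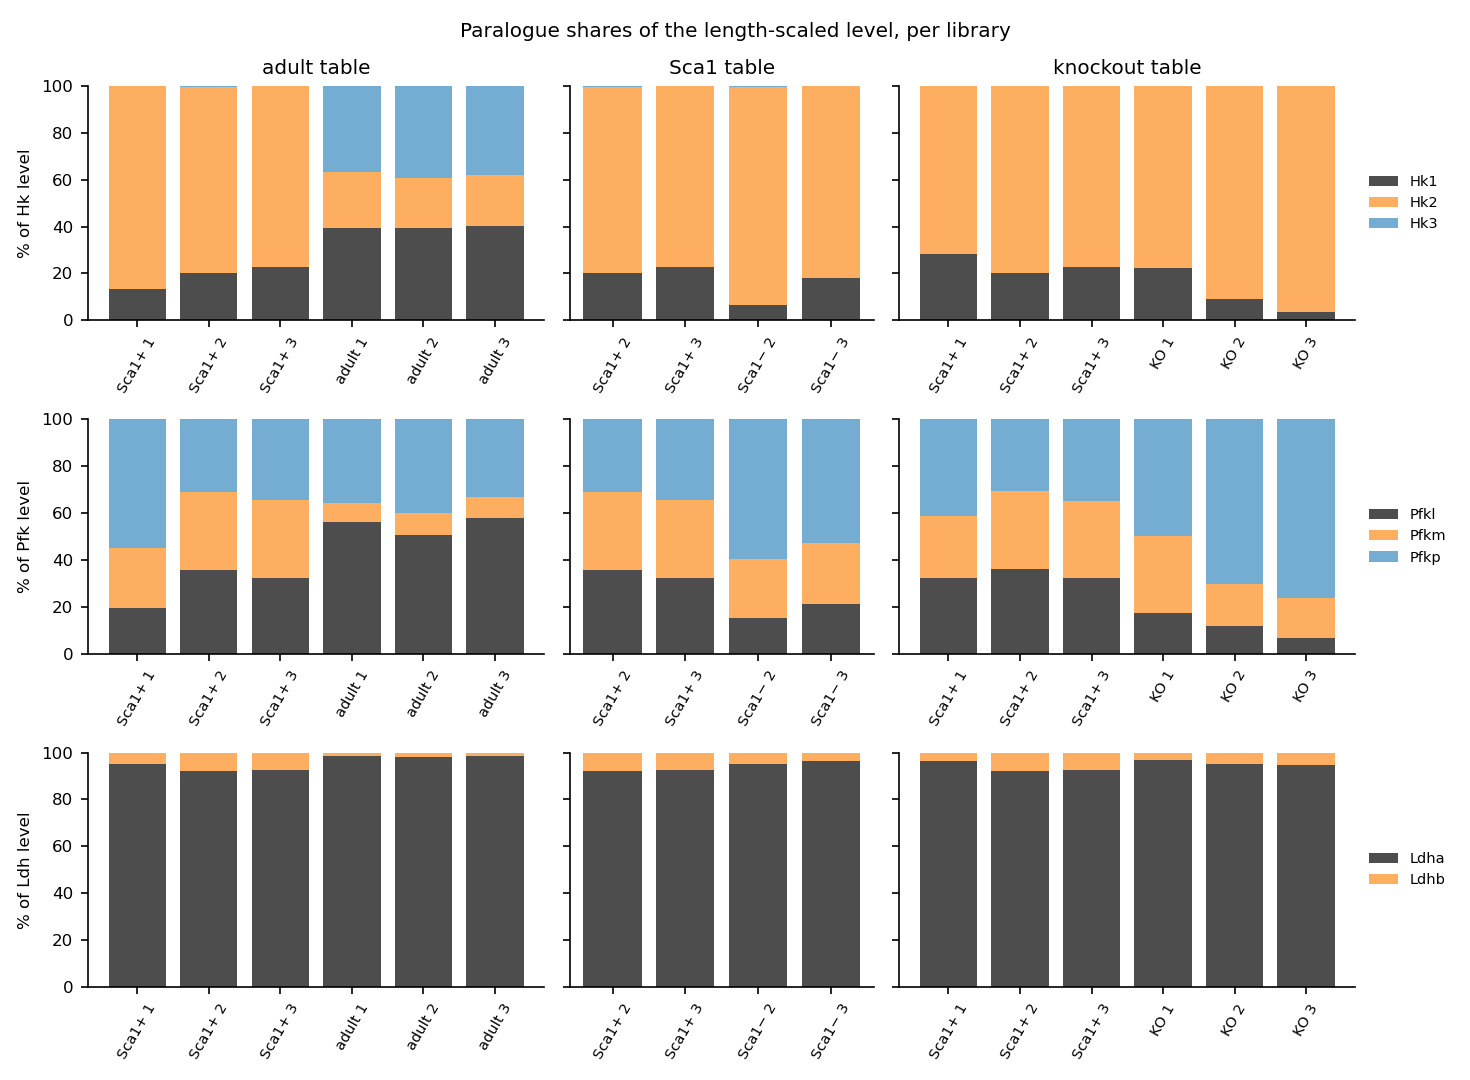
Share of each paralogue in the length-scaled level of its family (y axis, %), in each library (x axis; Sca1+ and Sca1− are labels, KO is the Igf1r knockout) of the 3 tables. Hk3 is visible in the adult libraries alone among those plotted, Pfkl makes up most of the adult Pfk level, and Pfkp takes 70.2% and 76.3% in knockouts 2 and 3.

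In the adult table, 7 of 9 shares tested did not overlap between groups, and for each of these an exact two-sided permutation test gave p = 0.1, the smallest that 3 against 3 samples can give (adjusted over the 9 shares, 0.129). The scale matters most for Hk2. The length per count implied by the authors' TPM was 3.31 times longer for Hk2 in adult than in perinatal libraries, against 0.681 to 1.36 times for the other members. On the TPM scale Hk2 was lower in adult (54.3, 30.9 and 43.8) than in perinatal libraries (68.2, 53.0 and 50.7), with overlap, while its counts were higher. Levels of other members differed between TPM and CPM too, though implied lengths differed little for Ldha (0.982 times), Pfkm (1.08 times) and P4ha1 (0.908 times). Tpi1, at 0.999 times, had a mean TPM of 569 in adult against 296 in perinatal libraries and a mean CPM of 494 against 376. TPM and CPM thus differ in more than length. Mean TPM of Ldha was 1039 in adult and 895 in perinatal libraries, with overlap, while its CPM was lower in adult. Pfkm was at 16.6 and 16.7. Pfkp (64.9 to 71.7 against 17.3 to 27.7) and P4ha1 (125 to 136 against 65.8 to 91.6) were higher in adult libraries without overlap, though their CPM overlapped. The share of Hk2 in adult minus perinatal libraries was -35.9 percentage points with raw counts and -38.2 with 1 fixed length per gene, in place of -58.7, and the difference in the share of Hk1 shrank from 20.9 to 5.56 and 5.23 points. The difference in the share of Pfkp went from -3.83 to -15.7 and -14.3 points. Eno2 changed sign, from 0.193 to -0.094 and -0.086 points. The difference in the share of Hk3 was 30.4 points with raw counts and 32.9 with a fixed length, in place of 37.8.

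The hypoxia members fell into 5 that rose and 3 that fell. Vegfa encodes the main growth factor of vessels (chromosome 17, 46016993 to 46032369, minus strand). It was at 208, 173 and 190 CPM in adult and 23.9, 20.2 and 21.6 CPM in perinatal libraries (log2 fold change 3.12, SE 0.14, edgeR adjusted p = 1.54e-06). Egln3, whose window is printed above, was at 33.7, 23.2 and 24.1 CPM against 2.96, 3.64 and 3.62 CPM (2.98, SE 0.22, edgeR adjusted p = 1.27e-05). Ddit4, which encodes the mTOR inhibitor REDD1, was at 43.8, 39.7 and 38.3 CPM against 6.36, 16.8 and 17.0 CPM (1.60, SE 0.34, edgeR adjusted p = 0.00324). All adult libraries lay above all perinatal ones for these 3. Ankrd37, a HIF target of little known function, rose by 0.77 and Bnip3, a mitophagy receptor, by 0.57 on the log2 scale. Bnip3 did not pass without perinatal replicate 2 (0.48, edgeR adjusted p = 0.0522).

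P4ha2, which hydroxylates collagen, was at 173, 110 and 150 CPM in adult and 305, 296 and 315 CPM in perinatal libraries and fell by 1.08 on the log2 scale (SE 0.18, edgeR adjusted p = 9.21e-04). P4ha1, the gene of another form of that subunit, did not differ beyond the spread, at 214, 206 and 215 against 181, 227 and 235 CPM (-0.02, SE 0.14, edgeR adjusted p = 0.911). The sign of P4ha1 turned with library totals (0.25), without the filter (0.04) and with DESeq2 (0.02). Adm, the gene of the vasodilator adrenomedullin, fell by 0.78 and Ndrg1, a stress-induced gene, by 0.69. The stromal markers moved with the collagen enzyme: 6 of 7 were lower in adult libraries, with a summed level of 3491 to 5823 CPM against 59676 to 95050 CPM. Their part in the level of P4ha2 was not tested.

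Genes around these members were counted from lists of neighbouring pathways, to be read beside the 37.4% higher and 39.7% lower over all genes tested. Of 9 genes of the HIF pathway 5 rose and 1 fell in adult libraries. Hif1an, which encodes the asparagine hydroxylase that silences HIF, rose by 2.18 and Egln1, the main prolyl hydroxylase, by 1.52, while Hif3a fell by 4.03 on the log2 scale. Hif1a and Epas1, the oxygen-regulated subunits, rose by 0.71 and 1.64. Of 10 tested genes of other glycolysis steps 3 rose and 5 fell. The lactate carrier gene Slc16a7 rose by 2.85 and Pfkfb2 by 2.41, and the muscle-type genes Eno3 and Pgam2 fell by 3.36 and 2.94. Skeletal muscle markers moved with the last pair: all 8 were lower in adult libraries, with a summed level of 11.2 to 16.0 CPM against 543 to 767 CPM, and their part was not tested.

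In the pentose phosphate pathway, which branches off after hexokinase, 6 of 7 genes rose and none fell. G6pdx, the entry enzyme, rose by 1.88 and Pgd by 2.20. Of 10 genes that govern pyruvate entry into mitochondria 3 were higher and 6 lower, a mixed list. Mpc1 and Mpc2, the subunits of the mitochondrial pyruvate carrier, fell by 1.73 and 2.05, and Pdk4 and Pdp2, a kinase and a phosphatase of pyruvate dehydrogenase, rose by 2.77 and 1.65. Of 23 further hypoxia targets 11 rose and 6 fell, with Ero1a at 3.01 and Loxl2 at 2.07 among the higher ones and Angptl4 at -4.06 and Car12 at -4.99 among the lower ones. So the hypoxia targets split in both lists.

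In the Sca1 table, 2 libraries labelled Sca1-negative stood against 2 labelled Sca1-positive, which asks how perinatal PDGFRa+ cells differ by that marker. Of 23 glycolysis members tested, Ldhb fell and no other member passed, and of 9 hypoxia members none passed. Over all 13529 genes tested 4.41% were called in either direction by edgeR (1.63% higher and 2.79% lower), so 1 of 23 is near the background. At an unadjusted p under 0.05 there were 7 glycolysis and 2 hypoxia members, beside 18.9% of all genes, and DESeq2 called 2 and 2, beside 7.09% of all genes (2.97% higher and 4.12% lower). The median log2 difference was -0.22 for the glycolysis and 0.03 for the hypoxia members, beside 0.01 over all genes. Groups did not overlap for 13 of 23 and 6 of 9, beside 50.3% of all genes. Since Ly6a runs against these labels, each direction is given by label only.

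Ldhb was at 33.2 and 30.2 CPM under the Sca1-negative label and 70.6 and 70.8 CPM under the Sca1-positive label (log2 fold change -1.16, SE 0.17, edgeR adjusted p = 0.0189). Both libraries of each group were close together. The call was lost without labelled Sca1-positive replicate 2 (edgeR adjusted p = 0.0721) or replicate 3 (0.0702), while the fold stayed at -1.17 and -1.16. Ldha was at 862 and 1050 against 1033 and 1135 CPM, so the share of Ldhb in the length-scaled lactate dehydrogenase level was 4.78% and 3.60% against 8.02% and 7.36%. Cartilage markers moved with Ldhb: all 11 were lower in the libraries labelled Sca1-negative, with a summed level of 677 and 767 CPM against 6331 and 7697 CPM, and 7 of 8 osteoblast markers were lower too. Their part in the level of Ldhb was not tested.

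Members with the next smallest p were Slc2a1, Adm and Pfkp. Slc2a1 was at 39.4 and 38.8 against 68.0 and 70.8 CPM (log2 difference -0.83, SE 0.17, edgeR adjusted p = 0.0509). It passed with DESeq2, and the authors' deposited table lists an adjusted p of 0.0148 for it. Adm was at 88.0 and 105 against 49.2 and 55.9 CPM (0.88, SE 0.19, edgeR adjusted p = 0.059), and the authors' deposited table lists 0.00664. For these 3 genes the libraries of a group lay close together and the groups were apart. Erythroid markers moved with Slc2a1, which red cell precursors also express, with a summed level of 183 and 523 CPM against 702 and 948 CPM. Of these markers 0 of 7 were called, and in the adult comparison they moved opposite to Slc2a1. Their part in its level was not tested.

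Hk1, Hk2, Pfkl and Pfkm were uneven between the libraries of the labelled Sca1-negative group. Hk1 was at 21.7 and 40.6 CPM in labelled Sca1-negative replicates 2 and 3 and at 36.3 and 40.5 CPM in the labelled Sca1-positive libraries. Hk2 was at 130 and 80.5 against 67.2 and 64.4 CPM (log2 difference 0.68, SE 0.26, edgeR adjusted p = 0.225), and Hk3 at 0.810 and 0.0719 against 0.507 and 0.208 CPM, at or near the limit of detection. Replicate 2 had the lowest Hk1 and the highest Hk2 of the 4 libraries. Pfkl was at 20.1 and 38.2 against 54.0 and 49.1 CPM and Pfkm at 25.9 and 35.9 against 38.3 and 38.5 CPM. Pfkp was at 71.8 and 73.8 against 42.2 and 48.6 CPM (0.68, SE 0.18, edgeR adjusted p = 0.0953). In the length-scaled phosphofructokinase level Pfkp therefore held 59.8% and 52.8% against 30.9% and 34.5%, and Pfkl 15.2% and 21.3% against 35.8% and 32.4%. Of 9 shares tested here 7 did not overlap, with the smallest exact two-sided permutation p that 2 against 2 allows, 0.333 (adjusted 0.429).

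Aldolase, enolase and pyruvate kinase showed the same uneven replicates. Aldoa was at 645 and 815 against 737 and 814 CPM, Aldoc at 0.540 and 1.22 against 3.27 and 1.52 CPM and Eno2 at 6.48 and 7.62 against 5.81 and 7.83 CPM. Eno1 was at 573 and 743 against 822 and 867 CPM, and Pkm at 456 and 675 against 749 and 798 CPM. Replicate 2 lay below all others for Aldoa, Aldoc, Eno1 and Pkm. The immediate early list was lowest in that library, at 8216 CPM against 12348 to 13851 CPM in the other 3. Its part in these values was not tested. With replicate 2 as the lone library of the labelled Sca1-negative group, the log2 difference was -0.55 for Eno1 and -0.76 for Pkm. With all libraries these were -0.36 and -0.45. Without replicate 2 the difference of Aldoa turned from -0.09 to 0.07.

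The hypoxia members did not move together. Ddit4 was at 4.12 and 8.55 against 15.1 and 15.3 CPM (log2 difference -1.27, SE 0.36, edgeR adjusted p = 0.116), and the authors' deposited table lists an adjusted p of 0.0301. Vegfa was at 29.6 and 13.4 against 18.2 and 19.4 CPM, so the libraries labelled Sca1-negative lay on both sides of the others. P4ha2 was at 271 and 288 against 266 and 283 CPM. The remaining members did not pass, and their log2 differences ran from -0.53 for Pdk1 to 0.27 for Gpi1 among the glycolysis members and from -0.52 for Ankrd37 to 0.30 for Bnip3 among the hypoxia members. Of the 5 neighbouring lists, 2 of 23 further hypoxia targets fell, Tfrc, the transferrin receptor gene, with a log2 difference of -2.47 and Angptl4 with -1.13 (edgeR adjusted p = 0.0292 and 0.0304), beside 2.79% lower over all genes. Tfrc is also a gene of red cell precursors, and the lower erythroid markers given above moved with it; their part in its level was not tested. No gene passed in the HIF, other glycolysis, pyruvate entry or pentose phosphate lists with edgeR.

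The Igf1r knockout libraries were compared with the labelled Sca1-positive wild-type libraries of the same table, 3 against 3, to ask what loss of the receptor changes. Insulin-like growth factor signalling is known to raise glucose uptake and glycolysis. With edgeR no member passed, beside 5 of 13590 genes over all (0.0368%, all lower). At an unadjusted p under 0.05 there were 8 glycolysis members and 1 hypoxia member, beside 21.8% of all genes, and DESeq2 called 2 and 1, beside 6.70% of all genes (3.17% higher and 3.53% lower). The fitted differences of 19 of 23 glycolysis members were below 0, with a median of -0.61 beside -0.03 over all genes, and the median of the 9 hypoxia members was 0.02. Groups did not overlap for 10 of 23 and 2 of 9, beside 29.0% of all genes. The summed glycolysis level was 5346, 4285 and 3257 CPM in knockouts 1, 2 and 3 and 6305, 5570 and 5850 CPM in the controls.

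Pfkl, the liver-type phosphofructokinase subunit, had the smallest p of the glycolysis members. It was at 23.2, 16.5 and 7.29 CPM in the knockouts and 59.6, 52.3 and 47.7 CPM in the controls (log2 difference -1.76, SE 0.40, edgeR adjusted p = 0.176). DESeq2 called it lower (adjusted p = 0.00242), and the authors' deposited table lists 0.0019. All knockouts lay well below all controls, among them control 1, whose Ly6a was high like theirs. Pfkm was at 33.9, 19.1 and 14.9 against 37.8, 37.2 and 37.4 CPM, and Pfkp at 61.0, 89.4 and 78.8 against 70.0, 40.9 and 47.2 CPM. Pfkl thus held 17.3%, 11.8% and 6.47% of the length-scaled phosphofructokinase level in the knockouts and 32.1%, 36.0% and 32.2% in the controls, and Pfkp 49.7%, 70.2% and 76.3% against 41.2%, 30.6% and 34.8%. Neither share overlapped between groups (exact two-sided permutation p = 0.1 for each, the smallest possible, and 0.233 adjusted over 7 shares). Lengths for this table came from the TPM of the 2 libraries shared with the Sca1 table. In the Sca1 table the labelled Sca1-negative libraries, wild type and high in Ly6a too, held shares of 15.2% and 21.3% for Pfkl and 59.8% and 52.8% for Pfkp. Mean Pfkl there was 29.1 CPM, against 51.6 CPM in the labelled Sca1-positive libraries. The part of the cells that Ly6a marks in the level of Pfkl was not tested.

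**Figure D4:**
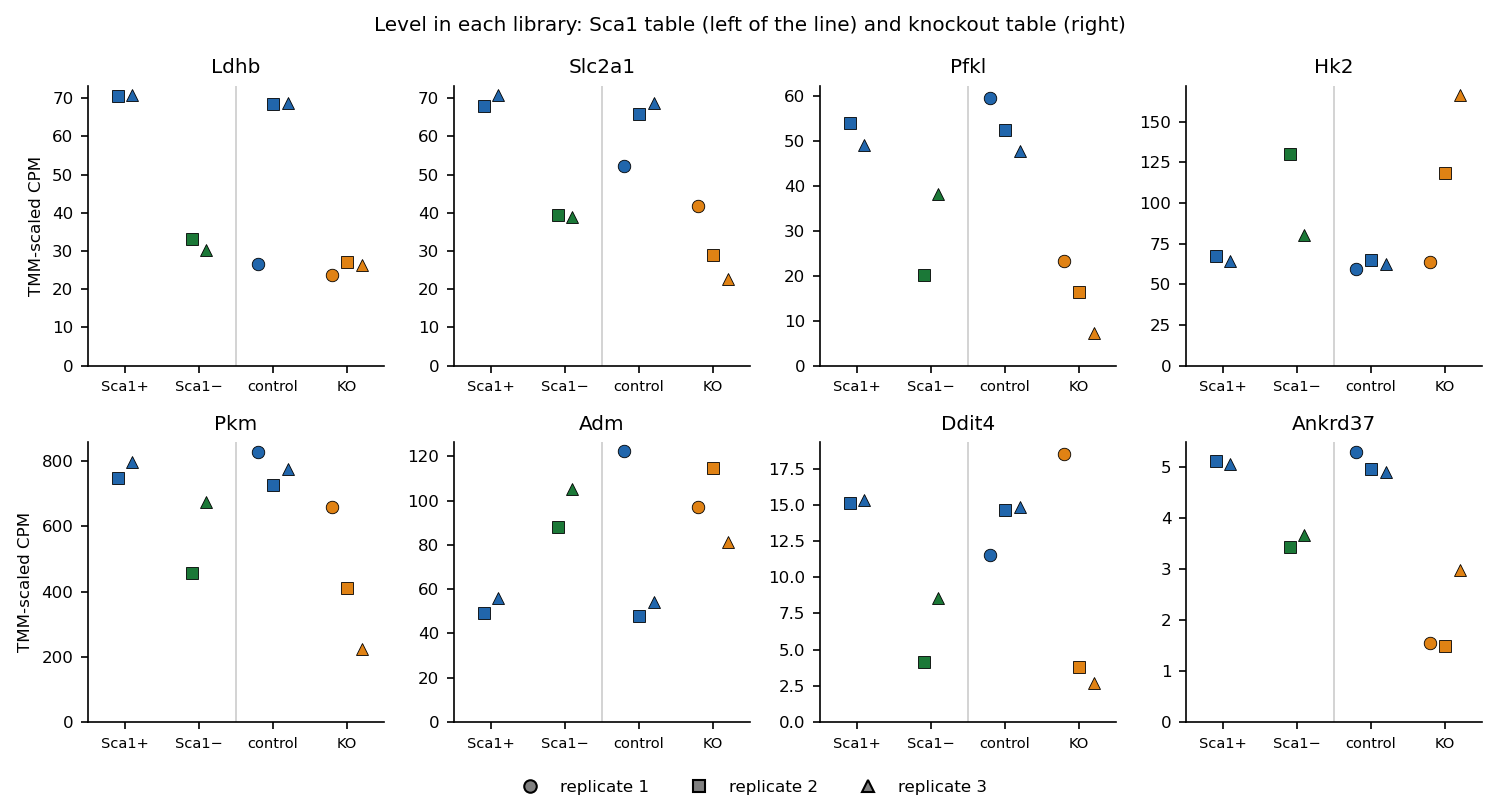
Level of 8 members in each library (y axis, TMM-scaled CPM) of the Sca1 table, left of the grey line, and of the knockout table, right of it, with replicate numbers by shape; replicates 2 and 3 of Sca1+ and control are the same libraries. Ldhb of control 1 lies with the knockouts and Adm of control 1 above them, while Pfkl, Slc2a1 and Ankrd37 of control 1 lie above all knockouts.

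Slc2a1 was at 41.9, 29.0 and 22.6 CPM in the knockouts and 52.2, 66.0 and 68.7 CPM in the controls (log2 difference -0.999, SE 0.28, edgeR adjusted p = 0.177, and 0.0324 with DESeq2). The erythroid markers moved with it here too, at 89.0 to 139 CPM against 681 to 922 CPM in sum (2 of 7 called), and their part in the level of Slc2a1 was not tested. Hk1 was at 38.7, 24.5 and 13.5 against 50.4, 35.2 and 39.3 CPM. Hk2 was at 63.9, 118 and 167 against 59.6, 65.1 and 62.6 CPM (0.90, SE 0.34, edgeR adjusted p = 0.200). Knockout 1 was close to the controls for both hexokinases, and knockouts 2 and 3 were lower for Hk1 and higher for Hk2. The share of Hk2 in the level of Hk1 and Hk2 was 77.8%, 91.1% and 96.3% in the knockouts and 71.5%, 79.7% and 77.2% in the controls, with overlap (exact two-sided permutation p = 0.2).

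Other families followed the same libraries. Aldoa was at 759, 544 and 296 against 896, 714 and 791 CPM, and Aldoc at 0.472, 0.372 and 0 against 0.988, 3.17 and 1.48 CPM. Eno1 was at 643, 610 and 244 against 1038, 797 and 842 CPM and Eno2 at 6.78, 3.99 and 4.44 against 9.31, 5.63 and 7.61 CPM. Pkm was at 659, 411 and 223 against 828, 726 and 776 CPM, and Slc16a3 at 20.8, 6.91 and 4.03 against 39.8, 23.5 and 25.5 CPM. Knockout 3 was the lowest of the 6 libraries for Aldoa, Aldoc, Eno1, Pkm and Slc16a3. Pgk1, at 211, 289 and 348 against 163, 222 and 198 CPM, was highest in that library. The immediate early list was at 11939, 8216 and 5051 CPM in knockouts 1, 2 and 3 and 11993 to 18757 CPM in the controls, so it moved with these genes, and its part in them was not tested.

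Ldha was at 873, 686 and 608 CPM in the knockouts and 903, 1002 and 1103 CPM in the controls. Ldhb was at 23.8, 27.1 and 26.3 CPM against 26.6, 68.5 and 68.8 CPM (log2 difference -1.09, SE 0.36, edgeR adjusted p = 0.184). Control 1, which shared the low cartilage markers and high Ly6a of the knockouts, also shared their level of Ldhb. Adm likewise was at 96.9, 115 and 81.4 CPM in the knockouts, 123 CPM in control 1 and 47.7 and 54.3 CPM in controls 2 and 3. Without control 1 Ldhb was called lower (-1.41, edgeR adjusted p = 0.0285), and with control 1 as the lone control no member was called, the difference of Ldhb was -0.05 and that of Adm turned to -0.33. Control 1 also differed from controls 2 and 3 in osteoblast markers, at 91.5 CPM against 5813 and 5561 CPM in sum. Its fibroblast progenitor markers were at 2492 CPM against 446 and 573 CPM. The part of the cartilage, osteoblast and fibroblast progenitor markers in Ldhb and Adm was not tested.

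Ankrd37 was the hypoxia member with the smallest p, at 1.54, 1.49 and 2.99 CPM in the knockouts and 5.30, 4.97 and 4.91 CPM in the controls (log2 difference -1.33, SE 0.38, edgeR adjusted p = 0.177, and 0.0428 with DESeq2). Every knockout lay below every control. Vegfa was at 20.4, 20.2 and 30.2 against 14.5, 17.6 and 18.8 CPM, the other hypoxia member without overlap, and did not pass (edgeR adjusted p = 0.292). Ddit4 was at 18.5, 3.83 and 2.72 against 11.5, 14.6 and 14.9 CPM, so knockout 1 was the highest library and knockouts 2 and 3 the lowest. P4ha1, P4ha2, Bnip3, Egln3, Ndrg1 and Adm overlapped between groups. The remaining glycolysis members did not pass, with log2 differences from -0.97 for Pfkfb4 to 0.26 for Slc16a1. No gene of the 5 neighbouring lists passed with edgeR.

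The count of calls rested on knockout 1. Without it edgeR called 7 glycolysis members: Hk2 was higher, and Hk1, Pfkl, Pfkm, Pkm, Slc16a3 and Slc2a1 were lower, with log2 differences from -2.43 (Slc16a3) to 1.20 (Hk2). Ddit4 was lower too (-2.06, edgeR adjusted p = 0.0228). Of all 13952 genes then tested, 1532 were higher and 1471 lower, so many genes besides the members passed. Knockout 1 held the most Igf1r counts of the 3 knockouts, and its part in these values was not tested.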

How the data were processed

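The authors deposited 3 tables of RNA-seq values per gene, each with whole read counts and TPM per library and log2 fold changes with adjusted p-values from their own comparison, per the file headers. Per the submitters' processing notes, Trimmomatic 0.32, DESeq2 and the build mm10 were used, while the aligner, counter, strand setting and annotation were not given in the sources used here. In the deposited knockout table the TPM columns hold values below 0, as on a log2 scale that no header states, and were not used.

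From the counts of each table, edgeR 4.0.16 (R 4.3.3, limma 3.58.1) was run with filterByExpr, TMM factors and the robust quasi-likelihood test on group alone. P-values were Benjamini-Hochberg adjusted over all genes of the table, at a threshold of 0.05. Levels are TMM-scaled CPM. DESeq2 1.42.0, other scalings, no filter, a replicate block and left-out libraries were alternatives. The edgeR fit was tested on simulated data in which few genes were changed, by 1 or 2 on the log2 scale. In the adult, Sca1 and knockout comparisons it recovered 94.7%, 91.8% and 65.6% of genes changed by 2 (95, 97 and 96 genes). Of the 99 genes changed by 1 in each, it recovered 49.5%, 27.3% and 5.05%. In the real adult comparison 77.1% of genes were called, so these shares do not measure its power.

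Shares within families used the TPM (for knockouts, counts over the length that the TPM of labelled Sca1-positive libraries 2 and 3 imply) with an exact permutation test (SciPy 1.17.1). Raw counts were an alternative scale, and 1 fixed length per gene was added after seeing the data. Pseudogene copies were matched with BLAST 2.17.0 against GENCODE M21 transcripts at 95% identity over 300 bases or more. Values in every library were given for the families and for up to 4 called members per set with the smallest adjusted p, and from each neighbouring list up to 2 called genes per direction; other genes shown with values (those nearest to the threshold, and genes that differ between libraries) were chosen after their values were seen. The members and lists were chosen with earlier results of these data known.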

Additional observations from a re-analysis of the deposited data

How the results depend on the processing

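The adult calls varied little: 19 to 22 glycolysis and 7 to 8 hypoxia members were called under the alternatives that keep all libraries or only perinatal replicate 1, and 18 to 24 and 7 to 8 with 1 library left out. Aldoa, Eno1, Tpi1, Bnip3, Hk2 and Pfkm lost the call under at least 1 alternative, and Pfkp, Eno2 and Ldha gained it (Pfkp with the replicate block too, 0.58, adjusted p 0.0231). In the Sca1 table, where 1 glycolysis and no hypoxia member was called, upper quartile factors and library totals each gave 2 glycolysis members, DESeq2 gave 2 glycolysis and 2 hypoxia members, and leaving out 1 library gave 0 to 13 and 0 to 4 (the lone library of a group is then assumed to vary like the others). The highest of these counts came without labelled Sca1-negative replicate 3. In that fit many genes besides the members passed too, so the rise in calls was not limited to the members. In the knockout table, with none called, DESeq2 gave 2 and 1, beside 6.70% of all genes. Leaving out 1 library gave 0 to 7 and 0 to 1. The most came without knockout 1, where edgeR called 1532 genes higher and 1471 lower of 13952.

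The replicate numbers were not taken to pair the samples, since no label ties them and not every pair of 3 correlated above 0.1. Same-numbered deviations correlated at -0.019, -0.017 and 0.185 in the adult table and 0.187, 0.118 and 0.054 in the knockout table. In the Sca1 table the value was 0.303 for both pairs. With 2 libraries per group these are equal by construction, so the sign is a hint only. With the replicate number as a block, 21 glycolysis and 8 hypoxia members were called in the adult table, 4 and 2 in the Sca1 table (Ldhb with Slc2a1, adjusted p 0.0135, Pfkl, 0.0397, and Pfkp, 0.0354, and Adm, 0.00849, with Ddit4, 0.0125) and 0 and 0 in the knockout table, and over all genes 577 higher and 792 lower in the Sca1 table and none in the knockout table. DESeq2 called 424 higher and 588 lower in the Sca1 table, and 472 and 527 in the knockout table.

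Members that changed sign were none of them called by edgeR in that comparison, and the cause was not tested. In the adult table P4ha1 (-0.02) was at 0.25 with library totals, 0.040 without the filter, 0.022 with DESeq2, 0.24 with only perinatal replicate 1, and -0.11 to 0.058 with 1 library left out. In the knockout table, keeping only control 1 gave -0.33 for Adm, -0.052 for Bnip3 and 0.021 for Egln3. P4ha1 was at -0.017 with upper quartile factors and -0.041 with library totals, and P4ha2 at 0.0036 without the filter. With 1 library left out, the ranges were -0.042 to 0.15 for Bnip3, -0.39 to 0.070 for Gpi1, -0.17 to 0.19 for P4ha1, -0.11 to 0.10 for P4ha2 and -0.010 to 0.44 for Slc16a1. In the Sca1 table P4ha2 was at -0.014 with upper quartile factors and -0.0051 with library totals. With 1 library left out there, the ranges were -0.26 to 0.072 for Aldoa, -0.16 to 0.28 for Eno2, -0.81 to 0.082 for Hk1, -0.13 to 0.48 for Ndrg1, -0.024 to 0.072 for P4ha2, -0.64 to 0.76 for Pfkfb4, -0.15 to 0.081 for Pgam1, -0.065 to 0.33 for Pgk1, -0.33 to 0.16 for Slc16a1, -1.55 to 0.16 for Slc16a3 and -0.48 to 0.67 for Vegfa.

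Hk3 was at or near the limit of detection in the perinatal libraries, at 0, 9 and 3 counts, and Aldoc was low in the knockouts, at 0 to 0.472 CPM.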
